A study of Mus musculus with 37 samples.

Results

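The 10 genes described here are ones that p53 switches on to restrain itself or to help a stressed cell adapt, and they were followed across every library of the study. They are Mdm2, Mdm4, Ppm1d, Ccng1, Zmat3, Trp53inp1, Phlda3, Tigar, Sesn1 and Sesn2. They were taken by name, with earlier results of these data known, and no measured value enters the rule. All 10 were present among the 30892 genes counted in the cardiac fibroblast (CF) libraries, the 20158 genes of the neonatal rat ventricular myocyte (NRVM) libraries, where Trp53inp1 carries its rat name Tp53inp1, and the 31053 Ensembl identifiers of the single-cell libraries. All 10 passed the filter on low counts in the CF and NRVM libraries, with at least 817 reads for any member in any CF library and at least 211 in any NRVM library.

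ENPP1 is a cell-surface enzyme that splits extracellular ATP into AMP. The study asked what cardiomyocytes release when they meet ATP, AMP or recombinant ENPP1, and how other cells respond to that medium. Cardiomyocyte-conditioned medium (MCndM) was collected from NRVM given vehicle, ENPP1, ATP, ENPP1+ATP or AMP. Wild-type C57BL/6 mouse CFs of an immortalized line received 1 of these 5 media for 24 or 48 h, with 2 libraries in each of the 10 groups. NRVM received them for 24 h, with 3 libraries in each of the 5 groups. All of these cells had been plated sparsely in serum and then kept in serum-free medium for 24 h. The study made its CF lines with the SV40 antigen, whose large T form is known to bind p53, a limit that all 5 media share. NRVM came from wild-type Sprague-Dawley rats, although the organism label gives mouse for every library. Nonmyocytes were sequenced as single cells at 7 days after myocardial infarction, as 1 library from control hearts, labelled wild type, and 1 from ENPP1CKO hearts, both C57BL/6. In ENPP1CKO mice a tamoxifen-dependent Cre driven by Col1a2, a collagen gene of fibroblasts, deletes floxed Enpp1, with tamoxifen given from before the infarction until 7 days after it. How many hearts went into a library is not given in the sources used here. The study's statistical methods call its replicates biological, while the labels do not say whether these libraries came from separate cultures, and the p-values measure only the spread between them.

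The p53 protein is held at a low level by Mdm2, a ubiquitin ligase that marks it for destruction, and is kept inactive by the related protein Mdm4. Stress such as DNA damage frees p53, which then binds DNA and raises the transcription of its targets, Mdm2 among them, so that the response carries its own brake. Ppm1d encodes the phosphatase Wip1, which removes activating phosphates from p53 and from the kinases of the damage response. Ccng1 encodes cyclin G1, which works with the phosphatase PP2A and acts on Mdm2. Zmat3 is a zinc finger protein that binds RNA. Trp53inp1 encodes a stress protein of p53 signalling and autophagy, Phlda3 a PH-domain protein that restrains Akt, and Tigar an enzyme that lowers glycolysis and protects against oxidants. Sesn1 and Sesn2 encode sestrins, which restrain mTORC1, and Sesn2 is also a target of ATF4, the transcription factor of the amino acid and integrated stress responses.

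Positions are given on GRCm38, the build the mouse files use. By GENCODE M21, Mdm2 spans chr10:117688875-117710758 on the minus strand and Ccng1 spans chr11:40748552-40755311 on the minus strand. Ppm1d spans chr11:85311244-85347066 on the plus strand and Sesn1 spans chr10:41809935-41908424 on the plus strand. Mdm4 (chr1:132959484-133030561), Zmat3 (chr3:32334792-32366014), Sesn2 (chr4:132492032-132510501) and Tigar (chr6:127085116-127109557) lie on the minus strand. Trp53inp1 (chr4:11156431-11174379) and Phlda3 (chr1:135766119-135769136) lie on the plus strand. RefSeq promoters of GRCm38.p6, from 250 bases before to 50 bases after the start of transcription, were at hand for 8 of the 10 members, and Zmat3 and Trp53inp1 had no entry. They were searched for the p53 response element consensus, whose repeat unit is a 10-base palindrome, so that a match on either strand is the same match. At least 1 repeat unit was found for 4 of the 8 members, Mdm2, Ccng1, Ppm1d and Sesn1, against 9.55% of the 27025 genes with a promoter entry. A pair of units within 13 bases of each other was found for 0 of the 8 members and for 0.074% of all genes. Among 28 other p53 targets with an entry, 7 held a unit and 1 such a pair. The 4 promoters with a match are printed 5′ to 3′ on the gene's strand with the matched unit in capitals. Of these genes, 3 are members that rose in the CFs and Sesn1, shown at the second of its start sites, is the member that fell.
Mdm2, chr10:117710709-117711008, minus strand: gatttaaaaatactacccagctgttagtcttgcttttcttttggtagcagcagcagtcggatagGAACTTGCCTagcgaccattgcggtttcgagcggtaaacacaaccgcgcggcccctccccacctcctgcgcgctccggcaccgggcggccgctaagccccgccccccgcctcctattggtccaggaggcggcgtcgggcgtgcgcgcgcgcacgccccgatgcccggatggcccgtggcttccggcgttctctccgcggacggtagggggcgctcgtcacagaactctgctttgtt
Ccng1, chr11:40755237-40755536, minus strand: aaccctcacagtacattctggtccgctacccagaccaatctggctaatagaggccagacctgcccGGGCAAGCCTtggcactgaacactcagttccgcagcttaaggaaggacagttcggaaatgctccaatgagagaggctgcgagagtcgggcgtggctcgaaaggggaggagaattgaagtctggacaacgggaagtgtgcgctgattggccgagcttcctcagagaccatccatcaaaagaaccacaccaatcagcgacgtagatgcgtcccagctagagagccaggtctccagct
Ppm1d, chr11:85311004-85311303, plus strand: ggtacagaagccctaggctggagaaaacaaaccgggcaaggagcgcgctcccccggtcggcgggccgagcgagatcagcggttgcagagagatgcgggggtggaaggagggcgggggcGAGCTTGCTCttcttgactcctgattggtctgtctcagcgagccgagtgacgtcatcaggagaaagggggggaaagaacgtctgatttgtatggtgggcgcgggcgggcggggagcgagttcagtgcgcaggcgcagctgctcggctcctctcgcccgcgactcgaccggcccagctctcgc
Sesn1, chr10:41887189-41887488, plus strand: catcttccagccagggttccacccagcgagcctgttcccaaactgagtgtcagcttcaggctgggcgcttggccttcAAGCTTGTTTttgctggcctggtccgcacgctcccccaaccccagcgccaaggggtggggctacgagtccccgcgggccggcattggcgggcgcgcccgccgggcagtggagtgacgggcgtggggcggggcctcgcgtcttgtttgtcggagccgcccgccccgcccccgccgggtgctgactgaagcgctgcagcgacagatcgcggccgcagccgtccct
The unit begins 186 bases before the start site in Mdm2, 185 in Ccng1, 132 in Ppm1d and 173 in Sesn1. A match is a string of letters and was not tested as a binding site, and these windows leave out introns and distant elements.

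The CF libraries held between 32184799 and 115824659 reads. The largest was 1 of the vehicle libraries of 24 h. The NRVM libraries held between 13481389 and 16977980 reads. Values are given as CPM, the counts-per-million scale on which a count is divided by the TMM-adjusted size of its library. A gene was called when its p-value from the quasi-likelihood test of edgeR was under 0.05 after Benjamini-Hochberg adjustment across the whole table. All 8 fibroblast markers were detected in every CF library, and the cardiomyocyte markers summed to between 12.7 and 24.5 CPM there. The latter were at 12.7 to 17.4 CPM with ENPP1+ATP or AMP MCndM and at 18.7 to 24.5 with vehicle MCndM. The endothelial markers were at 18.6 to 20.6 CPM with ENPP1+ATP or AMP at 24 h, against 20.7 to 22.9 with vehicle. At 48 h they were at 13.3 to 16.6 CPM against 19.3 to 20.9. In the CFs the summed fibroblast markers were lower with ENPP1+ATP or AMP MCndM (2633 to 3964 CPM) than with vehicle MCndM (6731 to 7200 CPM), and the summed macrophage markers were higher (25.5 to 75.7 against 8.36 to 9.38 CPM). The smooth muscle or pericyte markers summed to between 391 and 443 CPM with these 2 media at 24 h, against 822 to 909 with vehicle, and to between 738 and 785 at 48 h, against 808 to 890. With ATP MCndM the fibroblast markers were at 4948 to 5238 CPM at 24 h and 6500 to 6561 at 48 h, the smooth muscle or pericyte markers at 568 to 621 and 739 to 815, and the macrophage markers at 10.6 to 14.1 over both times. Their part in the changes of the members was not tested. Fewer cells of a type and less RNA per cell cannot be told apart in such libraries.

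At 24 h, ENPP1+ATP MCndM raised 8 of the 10 members in the CFs and lowered Sesn1. These 8 rose 1.57-fold (Mdm4) to 4.18-fold (Ccng1). In all genes tested, 23.9% were called higher and 25.3% lower in this comparison. Mdm2 measured 134 and 140 CPM in the vehicle libraries and 530 and 521 CPM with ENPP1+ATP, a log2 fold change of 1.94 ± 0.069 (SE, adjusted p = 6.05e-16 by edgeR). Ccng1 measured 169 and 185 CPM with vehicle and 738 and 738 CPM with ENPP1+ATP, a log2 fold change of 2.06 ± 0.073 (adjusted p = 3.04e-15). Neither gene had libraries of the groups that overlapped, and the distance between the groups was many times that between replicates. Trp53inp1 measured 68.5 and 83.2 CPM with vehicle and 285 and 285 CPM with ENPP1+ATP, a log2 fold change of 1.92 ± 0.097. Phlda3 rose by 1.35 ± 0.066, Zmat3 by 1.12 ± 0.060 and Ppm1d by 1.07 ± 0.063 on the same scale. Mdm4, the partner of Mdm2, rose less than these, from 91.7 and 95.8 CPM to 150 and 145 CPM.

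The sestrins went in opposite directions. Sesn2 measured 95.6 and 98.0 CPM with vehicle and 181 and 185 CPM with ENPP1+ATP, a log2 fold change of 0.92 ± 0.065. Sesn1 measured 39.0 and 34.4 CPM with vehicle and 28.1 and 25.4 CPM with ENPP1+ATP, and fell by 0.46 ± 0.11 on the log2 scale (adjusted p = 0.00119 by edgeR). Both Sesn1 libraries with ENPP1+ATP lay below both with vehicle. Tigar was the member that did not pass the test, with 23.8 and 26.1 CPM under vehicle and 29.3 and 24.7 CPM under ENPP1+ATP, and the groups overlapped (log2 fold change 0.12 ± 0.098, adjusted p = 0.346).

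**Figure D1:**
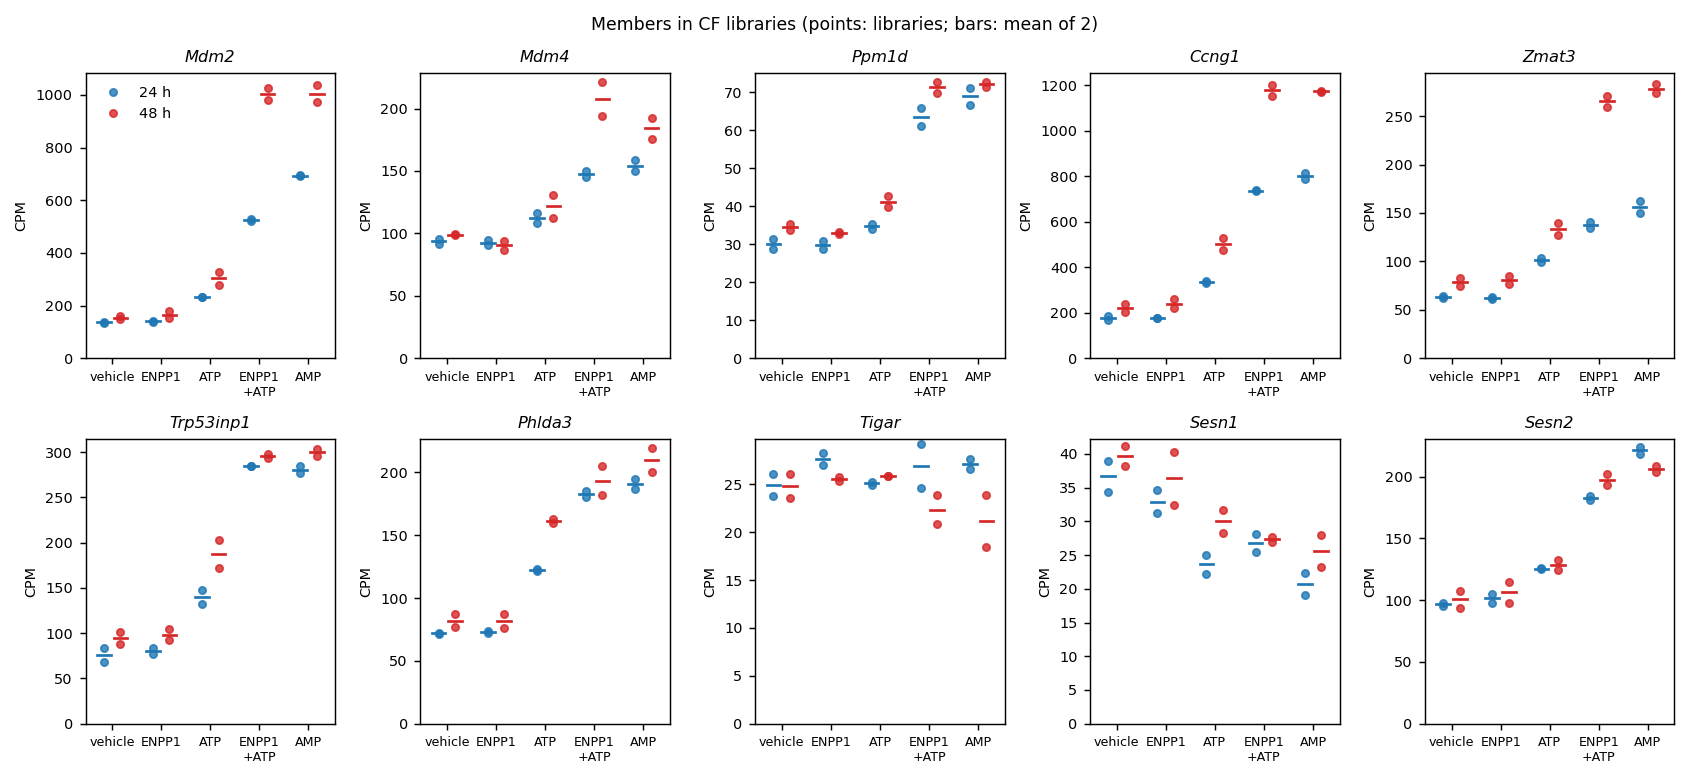
Level of each member in the CF libraries (y axis, CPM, linear and starting at 0) by medium (x axis) at 24 h (blue) and 48 h (red), where points are libraries and bars the mean of 2. Mdm2 lies between 134 and 140 CPM with vehicle at 24 h and between 973 and 1037 CPM with AMP at 48 h, while Tigar stays between 18.5 and 29.3 CPM throughout and Sesn1 is highest with vehicle and ENPP1 alone.

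AMP MCndM gave the same directions at 24 h, and all comparisons with vehicle at a time share their 2 vehicle libraries. It raised 8 members and lowered Sesn1, beside 25.3% of all genes called higher and 27.5% called lower. Mdm2 reached 695 and 693 CPM, a log2 fold change of 2.35 ± 0.069, and Ccng1 reached 817 and 789 CPM, a log2 fold change of 2.18 ± 0.073. Sesn2 reached 218 and 224 CPM, and Sesn1 measured 22.4 and 19.0 CPM, a fall of 0.84 ± 0.11 on the log2 scale (adjusted p = 1.03e-06 by edgeR). Tigar, at 26.6 and 27.6 CPM, was not called, although both values lay above those of vehicle. The chi-square per degree of freedom between the 2 AMP libraries of 24 h was 36.5. Between the replicates of every other CF group it lay between 6.34 and 12.7.

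ATP MCndM also raised 8 members and lowered Sesn1 at 24 h. The log2 fold changes of the 8 were smaller than with ENPP1+ATP, and that of Sesn1 was -0.64 with ATP and -0.46 with ENPP1+ATP. Here the background was far smaller, since 4.77% of all genes were called higher and 6.32% lower. Mdm2 measured 232 and 232 CPM, a log2 fold change of 0.76 ± 0.067, and Ccng1 measured 333 and 340 CPM, a log2 fold change of 0.93 ± 0.072. Phlda3 (0.77 ± 0.066), Trp53inp1 (0.89 ± 0.096) and Zmat3 (0.68 ± 0.060) moved by similar amounts. Sesn1 measured 25.1 and 22.2 CPM, a fall of 0.64 ± 0.11. The rises of Mdm4 (0.26 ± 0.069) and Ppm1d (0.20 ± 0.064) were the smallest. The call of Ppm1d was lost without ATP replicate 1 (adjusted p = 0.281 by edgeR), ATP replicate 2 (0.0811) or vehicle replicate 2 (0.4) and with no filter on low counts (0.094), and that of Mdm4 without ATP replicate 2 (0.154) or vehicle replicate 1 (0.157).

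ENPP1 MCndM without ATP moved no member past the threshold. Of all genes 0% were called by edgeR at 24 h and 0% at 48 h, and DESeq2 called 0 genes at either time. At an unadjusted p under 0.05 edgeR listed 249 genes at 24 h and 743 at 48 h, none of them a member. The members' log2 fold changes lay between -0.16 and 0.16 at 24 h and between -0.13 and 0.12 at 48 h. Mdm2 with ENPP1 measured 141 and 140 CPM at 24 h and 152 and 178 CPM at 48 h.

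Set directly against ATP MCndM, ENPP1+ATP MCndM held 8 members higher and 0 lower at both times. At 24 h 21.8% of all genes were called higher and 22.1% lower, and at 48 h 18.2% and 21.3%. Mdm2 was 2.27-fold higher at 24 h and 3.30-fold higher at 48 h. Ppm1d, which ATP MCndM had moved little, was 1.83-fold and 1.73-fold higher. The 2 members left were Tigar and Sesn1, with log2 differences of 0.10 ± 0.099 and 0.18 ± 0.11 at 24 h and of -0.21 ± 0.10 and -0.13 ± 0.11 at 48 h. Phlda3 showed the smallest called difference at 48 h, 0.26 ± 0.064, and its call was lost without ENPP1+ATP replicate 1 (adjusted p = 0.075 by edgeR). Tigar was called lower at 48 h without ENPP1+ATP replicate 2 (adjusted p = 0.0398) or with no filter (0.0424).

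Of the 10 members 3 differed between AMP and ENPP1+ATP MCndM at 24 h. Mdm2 was higher with AMP by 0.40 ± 0.066 on the log2 scale (adjusted p = 0.000736 by edgeR) and Sesn2 by 0.28 ± 0.064 (adjusted p = 0.011), and Sesn1 was lower by 0.38 ± 0.11 (adjusted p = 0.0483). Of all genes 2.6% were called higher and 3.65% lower. The call of Sesn1 was lost with other size factors, with the groups compared alone and without 3 of the 4 libraries in turn. That of Sesn2 was lost without AMP replicate 2 (adjusted p = 0.0609), ENPP1+ATP replicate 1 (0.124) or ENPP1+ATP replicate 2 (0.0595), so that without any of these libraries 1 member was called. Zmat3 (0.18 ± 0.059, adjusted p = 0.0719) was called higher with AMP by DESeq2 (0.0383). At 48 h 0 members were called by edgeR and 0 by DESeq2, and 1 member, Mdm4, had an unadjusted p under 0.05. Of all genes 0.162% were called. Mdm2 measured 973 and 1037 CPM with AMP and 982 and 1025 CPM with ENPP1+ATP, a log2 difference of 0.00 ± 0.065.

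At 48 h ENPP1+ATP MCndM again raised 8 members and lowered Sesn1, beside 20.8% of all genes called higher and 24.4% lower. AMP MCndM raised the same number and lowered Sesn1, beside 21.1% and 22.9%. Mdm2 measured 149 and 160 CPM with vehicle at 48 h, so that ENPP1+ATP raised it 6.51-fold (log2 fold change 2.70 ± 0.070) and AMP 6.52-fold. Ccng1 measured 206 and 238 CPM with vehicle, 1154 and 1202 CPM with ENPP1+ATP and 1172 and 1176 CPM with AMP. Zmat3 rose 3.39-fold with ENPP1+ATP and 3.55-fold with AMP. Trp53inp1 rose 3.13-fold and 3.18-fold, Phlda3 2.36-fold and 2.57-fold, and Ppm1d 2.07-fold and 2.09-fold. Mdm4 measured 99.2 and 98.6 CPM with vehicle, 222 and 194 CPM with ENPP1+ATP and 176 and 192 CPM with AMP.

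ATP MCndM at 48 h raised 8 members and lowered Sesn1, where 5.35% of all genes were called higher and 2.48% lower. Ccng1 rose 2.27-fold and Mdm2 1.97-fold. The fall of Sesn1, from 41.2 and 38.2 CPM to 28.3 and 31.7 CPM, lost its call without ATP replicate 1 (adjusted p = 0.287 by edgeR) or vehicle replicate 1 (0.258). Mdm4 (0.30 ± 0.069) lost its call without ATP replicate 1 or either vehicle library, and Ppm1d (0.25 ± 0.064) without ATP replicate 2 or vehicle replicate 2. Tigar was again not called with any medium at 48 h. Its values were 23.6 and 26.1 CPM with vehicle, 20.8 and 23.8 with ENPP1+ATP and 23.8 and 18.5 with AMP, and it was called lower with AMP without AMP replicate 1 (adjusted p = 0.00319) or with no filter on low counts (0.0182).

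**Figure D2:**
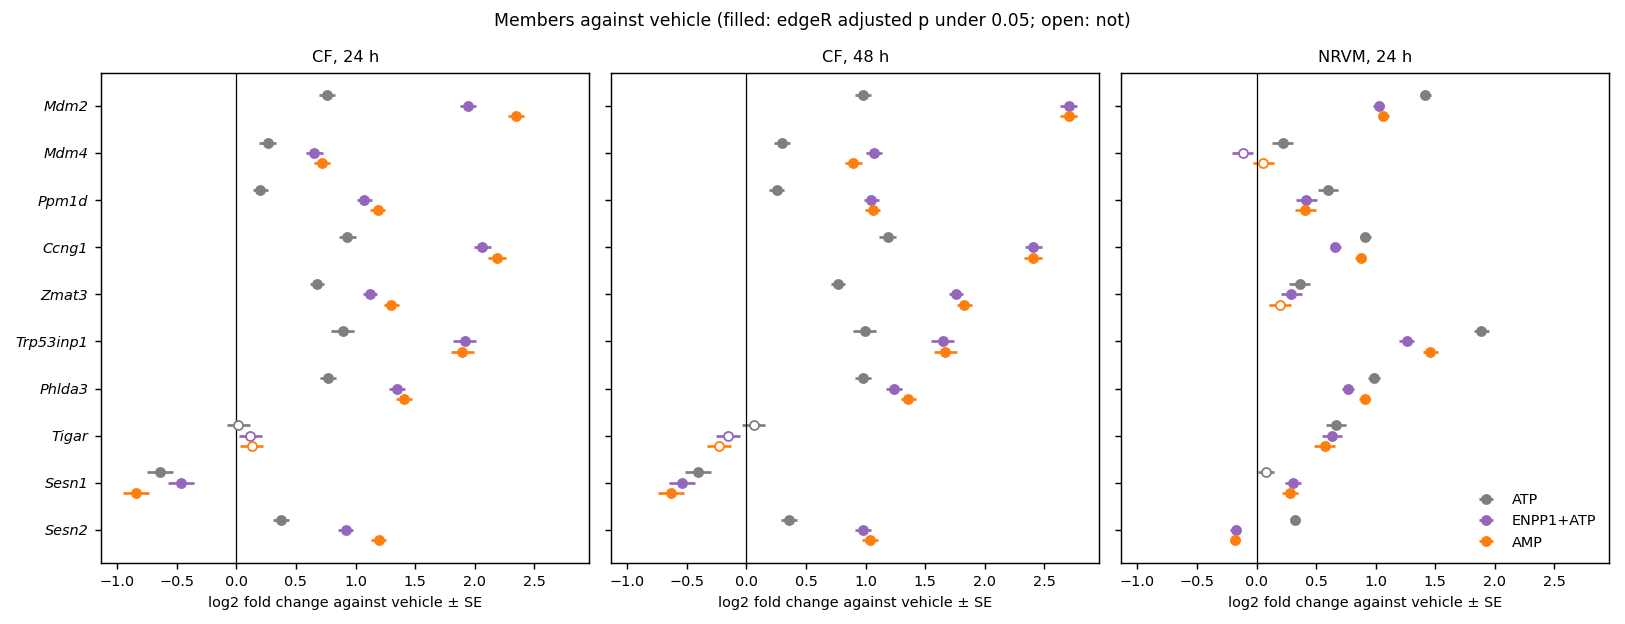
Log2 fold change against vehicle ± SE (x axis) of each member (y axis) in CFs at 24 h and 48 h and in NRVM at 24 h, with ATP in grey, ENPP1+ATP in purple and AMP in orange; filled points passed an adjusted p under 0.05 by edgeR. In the CFs ATP lies nearest to 0 for the 8 members that rose, while in NRVM it lies farthest from 0 for Mdm2 (1.42) and Trp53inp1 (1.89), and with ENPP1+ATP or AMP Sesn1 and Sesn2 lie on opposite sides of 0 in CFs and NRVM.

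Time set some members apart. From 24 h to 48 h under vehicle, Ccng1 rose by 0.33 ± 0.071 and Zmat3 by 0.31 ± 0.061 on the log2 scale, and 1.68% of all genes were called higher. Both calls were lost without vehicle replicate 2 of 48 h, so that 0 members were called. Ccng1 also lost its call without vehicle replicate 1 of 24 h, the deepest library (adjusted p = 0.125 by edgeR), and with the groups compared alone (0.0636). Without vehicle replicate 2 of 24 h Zmat3 lost its call (0.0549) and Trp53inp1 gained one (0.0168). Other settings called more members higher. These were Mdm2, Trp53inp1 and Phlda3 with no filter (0.0255, 1.57e-06 and 0.0392), Mdm2, Ppm1d and Phlda3 with the groups compared alone (0.00444, 0.0216 and 0.0207) and Trp53inp1 by DESeq2 (0.0422). Under ENPP1+ATP 5 members rose with time (Mdm2, Zmat3, Ccng1, Mdm4 and Ppm1d) and Tigar fell, beside 19.5% of all genes called higher and 21.2% lower. Under AMP 5 rose (Zmat3, Ccng1, Mdm2, Sesn1 and Mdm4) and Tigar fell, beside 22.3% and 20.8%. Each of the calls of Ppm1d and Tigar under ENPP1+ATP was lost without either of 2 libraries, and so was that of Sesn1 under AMP. With the groups compared alone these 3 calls were lost too (adjusted p = 0.0686, 0.0806 and 0.0553 by edgeR), so that 4 members were called under ENPP1+ATP and 5 under AMP. Phlda3 (0.14 ± 0.063, adjusted p = 0.0782) gained a call under AMP with no filter (0.0275) or without AMP replicate 2 of 48 h (0.0302). Under AMP Mdm4 (adjusted p = 0.0701 by edgeR) and Tigar (0.201) lost theirs without AMP replicate 2 of 48 h.

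The change of the medium's effect with time was tested as an interaction. For ENPP1+ATP against vehicle it was called for 4 members, all higher at 48 h, where 15.1% of all genes were called higher. Mdm2 gained 0.76 ± 0.094 (adjusted p = 1.39e-06 by edgeR), Zmat3 0.64 ± 0.084 (adjusted p = 2.30e-06), Mdm4 0.42 ± 0.097 (adjusted p = 0.00181) and Ccng1 0.34 ± 0.10 (adjusted p = 0.0115). The call of Ccng1 was lost without vehicle replicate 2 of 24 h (adjusted p = 0.0736), ENPP1+ATP replicate 2 of 48 h (0.0511) or vehicle replicate 1 of 48 h (0.0878). For AMP, Mdm2 gained 0.36 ± 0.094 and Zmat3 0.53 ± 0.084, where 17.3% of all genes were called higher. Tigar lost 0.36 ± 0.14 (adjusted p = 0.049), where 14.4% of all genes were called lower. The call of Tigar was lost by DESeq2 (adjusted p = 0.0516), with the groups compared alone and without any of 5 libraries in turn. Phlda3, Ppm1d and Sesn2 had interactions between -0.16 and 0.06 with either medium, none of them called. Trp53inp1 measured -0.27 ± 0.13 with ENPP1+ATP and -0.23 ± 0.13 with AMP, and was called lower with either medium without vehicle replicate 2 of 24 h (adjusted p = 0.0175 and 0.0341) or with no filter (0.00871 and 0.0382). Ccng1 with AMP (0.22 ± 0.10) was called without vehicle replicate 2 of 48 h (0.0171) or with no filter (0.00691).

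Per kilobase of merged exons in GENCODE M21, Ccng1 (48.1 to 52.5 CPM per kilobase) and Phlda3 (45.6 to 46.6) were the most abundant members in the CFs with vehicle at 24 h. Sesn2 (27.5 to 28.2) and Mdm2 (26.3 to 27.5) followed, a pair whose libraries came close to overlapping. Ppm1d and Sesn1 overlapped lower in the order, Tigar (6.50 to 7.12) and Mdm4 (6.20 to 6.47) lay close together, and Zmat3 (5.46 to 5.60) was the lowest. This order depends on the annotated length, 14798 bases for Mdm4, 11435 for Zmat3 and 3658 for Tigar. In mean CPM of the same libraries, Mdm4 (93.8) and Zmat3 (63.2) lay above Tigar (24.9). With ENPP1+ATP at 24 h Ccng1 (210.1 to 210.2) led, Phlda3 (116 to 119) and Mdm2 (102 to 104) followed, and Tigar overlapped Sesn1 (6.38 to 7.06) at the bottom. With vehicle at 48 h Ccng1 and Phlda3 led again, Mdm2 (29.3 to 31.4) overlapped Sesn2 (26.9 to 31.0), and Zmat3, Tigar and Mdm4 overlapped between 6.45 and 7.21. With ENPP1+ATP at 48 h Ccng1 (329 to 342), Mdm2 (193 to 202) and Phlda3 (117 to 132) led, Zmat3 and Ppm1d overlapped, and Tigar (5.69 to 6.52) was the lowest. At either time Mdm2 lay well above Sesn2 with ENPP1+ATP and near it with vehicle.

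The rest of the pathway was read from lists chosen with earlier results of these data known. Of 35 other p53 targets, ENPP1+ATP MCndM raised 29 and lowered 3 in the CFs at 24 h, with a median log2 fold change of 0.81 beside 1.10 for the 10 members and -0.00 for all genes tested. At 48 h it raised 28 and lowered 3, with medians of 1.04 for these targets and 1.16 for the members. At 24 h the highest were Perp, a desmosomal protein (3.45 ± 0.38), Pmaip1, which encodes the BH3-only protein Noxa (3.22 ± 0.14), and Btg2, an antiproliferative gene (2.53 ± 0.099). Perp was scarce, between 0.19 and 0.24 CPM with vehicle and between 1.74 and 2.85 CPM with ENPP1+ATP. The lowest were Tap1, a peptide transporter (-0.68 ± 0.17), and Dram1 (-0.34 ± 0.11). At 48 h Perp (4.41 ± 0.36) and Pmaip1 (2.92 ± 0.14) were joined by the sulfatase gene Sulf2 (2.78 ± 0.096), and the lowest were Gadd45a, a growth arrest gene (-0.85 ± 0.075), Dram1 (-0.47 ± 0.11) and Rrm2b, a ribonucleotide reductase subunit (-0.25 ± 0.099). AMP raised 30 and lowered 1 at 24 h and raised 27 and lowered 3 at 48 h, and ATP raised 19 and 22 and lowered 0 at either time. The shares of all genes called higher and lower were 23.9% and 25.3% with ENPP1+ATP at 24 h and 20.8% and 24.4% at 48 h. With AMP they were 25.3% and 27.5% at 24 h and 21.1% and 22.9% at 48 h. With ATP they were 4.77% and 6.32% at 24 h and 5.35% and 2.48% at 48 h. The counts for these media are therefore not set against each other.

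Of 11 p53 regulators outside the members, 3 rose and 1 fell with ENPP1+ATP at 24 h, beside 23.9% and 25.3% of all genes. At 48 h 6 rose, where 20.8% of all genes did, and the medians of the list were 0.03 and 0.21. The damage kinase Chek2 rose by 0.74 ± 0.056 at 24 h and 0.64 ± 0.056 at 48 h, and the ubiquitin ligase Cop1 fell by 0.36 ± 0.060 at 24 h. Ep300 (0.31 ± 0.055) and Chek1 (0.24 ± 0.071) were the other 2 rises at 24 h, and Rchy1 (0.48 ± 0.063) and Hipk2 (0.42 ± 0.11) followed Chek2 at 48 h. Trp53 itself measured 222 and 213 CPM with vehicle and 217 and 218 CPM with ENPP1+ATP at 24 h (-0.00 ± 0.042), and at 48 h 213 and 211 against 275 and 274 CPM (0.37 ± 0.042).

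Of 6 paralogs of the members tested in the CFs, ENPP1+ATP raised 5 and lowered 1 at 24 h, beside 23.9% and 25.3% of all genes, and raised 2 and lowered 2 at 48 h, beside 20.8% and 24.4%. Ccng2, the sister of Ccng1, rose by 0.62 at 24 h and changed by -0.04 at 48 h, a value that did not pass the test. Sesn3 rose by 0.32 at 24 h and measured -0.05 at 48 h, and Trp53inp2 rose by 0.26 and then fell by 0.18. Phlda1 rose at both times (0.49 and 0.69), as did Ppm1a (0.12 and 0.50), while Ppm1b fell (-0.28 and -0.48). Phlda2 did not pass the filter, at 0 to 0.12 CPM in the CF libraries. Of 10 ATF4 targets, the group to which Sesn2 also belongs, ENPP1+ATP raised 3 and lowered 7 at both times, beside the same shares of all genes, with medians of -0.44 and -1.22.

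Over the 20 CF libraries the log2 CPM of 1700007K13Rik, Abcb1b and Ckap2 followed Mdm2 most closely, each with a Pearson r of 0.996 or 0.997. For Ccng1 these were 9230114K14Rik (0.997), Cdkn1a (0.996) and Map3k20 (0.995). For Phlda3 they were 4833427G06Rik (0.985), Trp53inp1 (0.985) and Fam212b (0.984). These are likenesses across libraries that share their 10 groups and are given as a description.

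In NRVM ATP, ENPP1+ATP and AMP MCndM each raised Mdm2, Ccng1, Ppm1d, Trp53inp1, Phlda3 and Tigar. ATP MCndM raised 9 of the 10 and lowered 0, beside 30.2% of all genes called higher and 29.7% lower. Trp53inp1 measured 31.2, 32.9 and 32.0 CPM with vehicle and 122, 114 and 119 CPM with ATP, a log2 fold change of 1.89 ± 0.060 (adjusted p = 1.76e-28 by edgeR). Mdm2 measured 78.0, 71.4 and 74.7 CPM with vehicle and 199, 193 and 206 CPM with ATP, a log2 fold change of 1.42 ± 0.047. The groups were far apart for both genes. Phlda3 rose 1.98-fold, Ccng1 1.88-fold, Ppm1d 1.52-fold and Sesn2 1.25-fold. Tigar, which was not called against vehicle in the CFs, rose from 16.4, 14.6 and 16.1 CPM to 23.7, 25.7 and 25.2 CPM. Sesn1 did not pass the test (0.08 ± 0.068). The rise of Mdm4 (0.22 ± 0.086, adjusted p = 0.0262) was lost by DESeq2 (adjusted p = 0.0545), without ATP replicate 2 (0.249) or without vehicle replicate 2 (0.193).

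ENPP1+ATP MCndM raised 8 members in NRVM and lowered Sesn2, beside 28.6% of all genes called higher and 27.4% lower. AMP MCndM raised 7 and lowered Sesn2, beside 29.2% and 28%. Trp53inp1 rose 2.39-fold with ENPP1+ATP and 2.75-fold with AMP, and Mdm2 rose 2.03-fold and 2.09-fold. Ccng1 measured 988, 925 and 964 CPM with vehicle, 1505, 1456 and 1590 CPM with ENPP1+ATP and 1845, 1795 and 1629 CPM with AMP. Zmat3 rose 1.22-fold with ENPP1+ATP and with AMP did not pass the test (0.19 ± 0.090, adjusted p = 0.0623 by edgeR; 0.0303 without AMP replicate 3). Mdm4 passed it with neither medium (-0.12 ± 0.088 and 0.06 ± 0.087).

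With ENPP1+ATP and with AMP the sestrins again parted, with Sesn1 now higher and Sesn2 lower than with vehicle. Sesn1 measured 38.4, 39.5 and 34.0 CPM with vehicle and 43.8, 47.8 and 46.7 CPM with ENPP1+ATP, a log2 fold change of 0.30 ± 0.067 (adjusted p = 0.000158 by edgeR), and with AMP it rose by 0.28 ± 0.067. Sesn2 measured 140, 140 and 145 CPM with vehicle and 130, 126 and 119 CPM with ENPP1+ATP, a fall of 0.18 ± 0.044 (adjusted p = 0.000692), and with AMP it fell by 0.18 ± 0.044. No library overlapped between the groups for either gene. CF and NRVM libraries were counted and scaled separately, and the difference between them was not tested.

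**Figure D3:**
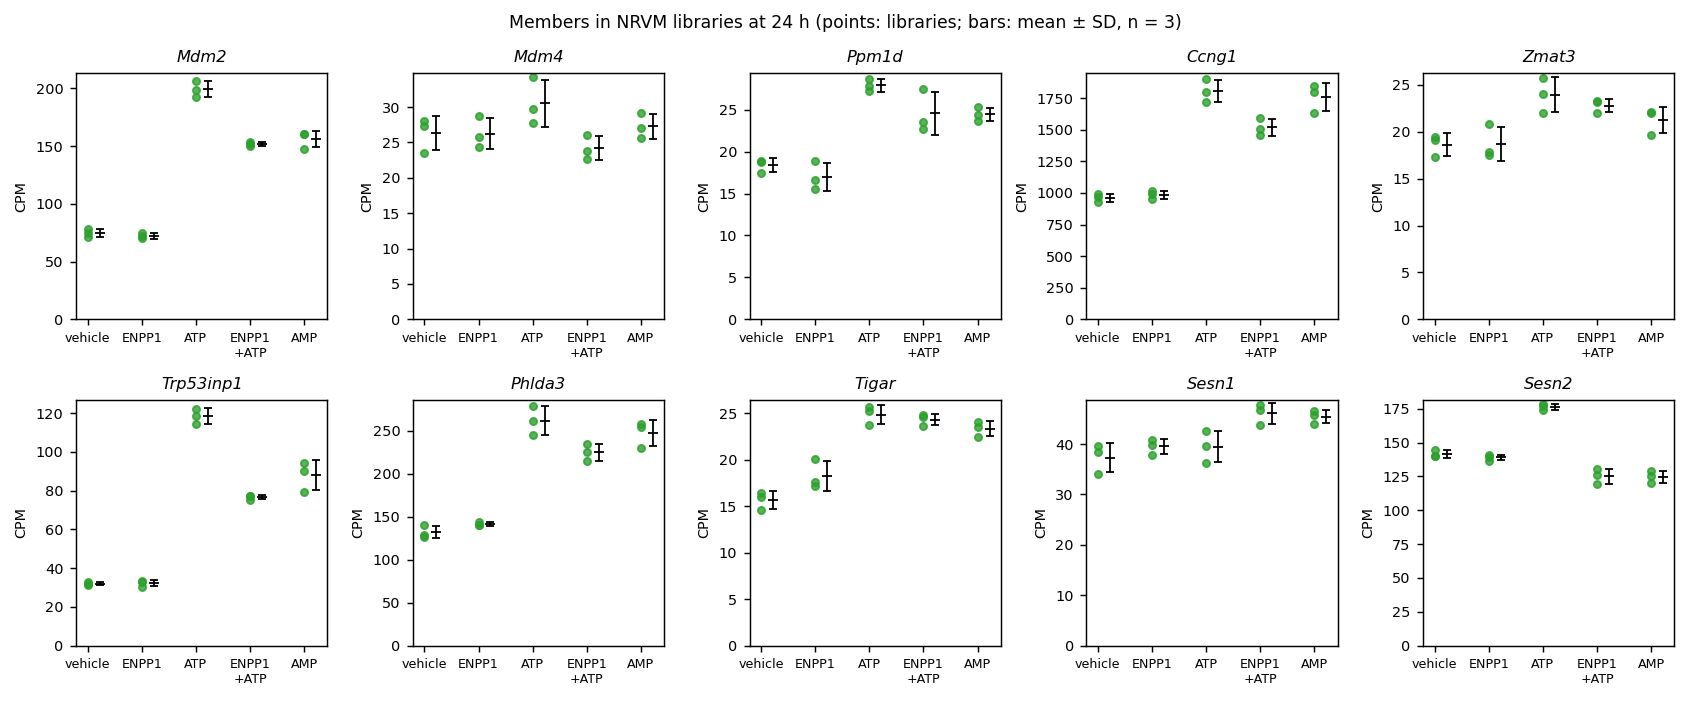
Level of each member in the NRVM libraries (y axis, CPM, linear and starting at 0) by medium (x axis), where points are libraries and black bars the mean ± SD of 3. Trp53inp1 is between 114 and 122 CPM with ATP and between 31.2 and 32.9 CPM with vehicle, and Sesn2 is highest with ATP (174 to 179 CPM) and lowest with AMP and ENPP1+ATP.

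Directly compared in NRVM, ENPP1+ATP held 6 members lower than ATP did (Mdm2, Mdm4, Ccng1, Trp53inp1, Sesn2 and Phlda3) and Sesn1 higher. Of all genes 14.1% were called higher and 13.5% lower. Trp53inp1 was 1.54-fold lower, Sesn2 1.41-fold lower and Mdm2 1.31-fold lower. Without ATP replicate 2 the calls of Mdm4 (adjusted p = 0.0534 by edgeR) and Sesn1 (0.092) were lost. Ppm1d (-0.18 ± 0.083) was called lower without ENPP1+ATP replicate 3 (0.0235). In the CFs at 24 h the same comparison had 8 members higher and 0 lower, and the difference between the cell types was not tested. ENPP1 MCndM moved 0 members, with 0% of all genes called by edgeR and 0 by DESeq2. At an unadjusted p under 0.05 there were 693 genes and 1 member, Tigar (0.22 ± 0.090).

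The NRVM cultures also held fibroblast RNA, and it moved with the media. The 7 fibroblast markers present summed to between 24748 and 26134 CPM with vehicle, and to between 8274 and 12293 CPM with ATP, ENPP1+ATP or AMP. The 8 cardiomyocyte markers summed to between 36894 and 39048 CPM with vehicle, 31423 and 33152 with ENPP1+ATP, 36363 and 39405 with AMP and 20289 and 21981 with ATP. The macrophage markers, of which 2 to 4 of 8 were at 0 in every library of these groups except 1 with 1 at 0, summed to between 4.56 and 5.44 CPM with vehicle, 15.1 and 16.7 with ATP, 8.94 and 11.5 with ENPP1+ATP and 9.81 and 12.3 with AMP. The 7 endothelial markers present summed to between 28.1 and 35.5 CPM with vehicle, 62.2 and 85.0 with ATP, 43.8 and 48.0 with ENPP1+ATP and 37.6 and 96.3 with AMP. The smooth muscle or pericyte markers summed to between 2763 and 2914 CPM with vehicle, and to between 2036 and 2256 with ATP, ENPP1+ATP or AMP. The mesothelial markers summed to between 184 and 231 CPM with vehicle, 131 and 143 with ATP, 135 and 194 with ENPP1+ATP and 143 and 158 with AMP. The part of these shifts in the members' changes was not tested. Other p53 targets moved with the members, as 23 of 31 rose and 1 fell with ATP, 16 rose and 6 fell with ENPP1+ATP, and 17 rose and 6 fell with AMP. Trp53 fell by 0.63 ± 0.051 with ENPP1+ATP, 0.66 ± 0.051 with AMP and 0.64 ± 0.051 with ATP. Of 10 p53 regulators tested, Trp53 among them, 1 rose and 4 fell with each of these media, and of 10 ATF4 targets 9 fell and 1 rose with ENPP1+ATP, 9 fell and 0 rose with AMP, and 6 fell and 3 rose with ATP, with median log2 fold changes of -0.86, -0.90 and -0.24. Over all genes 28.6% were called higher and 27.4% lower with ENPP1+ATP, 29.2% and 28% with AMP and 30.2% and 29.7% with ATP, and nothing is read from the counts of regulators or of other targets that fell. Among the paralogs, Ccng2 rose with ENPP1+ATP, AMP and ATP (0.58, 0.47 and 0.51) and Phlda1 fell (-0.46, -0.47 and -0.64). Sesn3 (0.21, 0.21 and 0.06), Ppm1a (0.31, 0.15 and 0.31), Ppm1b (-0.13, -0.17 and -0.11) and Trp53inp2 (0.13, 0.26 and -0.15) changed by at most 0.31 in size, and the values of Sesn3 and Ppm1b with ATP did not pass the test. Phlda2, at 0.069 to 1.87 CPM, passed it with ATP (1.74 ± 0.63) and not with ENPP1+ATP (0.14 ± 0.77) or AMP (1.00 ± 0.69).

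In the infarcted heart the members were compared between cell classes and between 2 libraries. The ENPP1CKO library kept 7255 of 7460 barcodes and the control library 5240 of 5347, and they shared 68 barcodes. Cells were clustered without the members, and a cluster was named "-like" from its markers. Enpp1 in fibroblast-like cells was 28.6 CPM in the ENPP1CKO library (473 counts) and 130 CPM in the control library (1348 counts), so the library labelled as deleted had less of it. With 1 library per genotype no test between genotypes can be made. Intervals are 95% exact limits and cover counting error only. The share of all genes whose limits exclude equal levels in the libraries was not computed for any class. Limits of that kind therefore do not set a member apart from other genes.

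The members differed in the classes where they were most abundant. Values are given for the control library first and the ENPP1CKO library second. Phlda3 was 243 and 231 CPM in fibroblast-like cells (1861 and 3724 cells), 148 and 179 CPM in smooth muscle or pericyte-like cells (73 and 156), 98.2 and 103 CPM in endothelial-like cells (192 and 932) and 16.3 and 14.2 CPM in macrophage-like cells (2576 and 2078). The counting limits of fibroblast-like and smooth muscle or pericyte-like cells overlapped in the ENPP1CKO library, those of the latter and endothelial-like cells overlapped in the control library, and the other steps exceeded them. Mdm2 showed another order, with 65.7 and 54.6 CPM in macrophage-like cells, 33.9 and 32.5 CPM in endothelial-like cells and 24.5 and 27.5 CPM in fibroblast-like cells. Its limits in macrophage-like cells lay above those of both other classes in each library. Zmat3 was 25.3 and 28.9 CPM in fibroblast-like cells against 6.57 and 4.31 CPM in macrophage-like cells. Trp53inp1 was 31.2 and 40.7 CPM in fibroblast-like cells, 56.6 and 49.1 CPM in T or NK cell-like cells and 7.25 and 10.0 CPM in macrophage-like cells. T or NK cell-like cells held 17 of its counts in each library, and their limits overlapped those of fibroblast-like cells in both. Ccng1 was 56.7 and 56.5 CPM in fibroblast-like, 41.6 and 41.5 in macrophage-like and 14.3 and 14.5 CPM in endothelial-like cells. In smooth muscle or pericyte-like cells Ccng1 was 36.3 and 70.2 CPM (13 and 29 counts). Its limits there overlapped those of fibroblast-like cells in both libraries. In fibroblast-like cells Tigar was the scarcest member, with 16 and 20 counts over all cells of the class in the control and ENPP1CKO libraries, or 1.54 and 1.21 CPM. The share of free RNA in these low values was not tested.

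**Figure D4:**
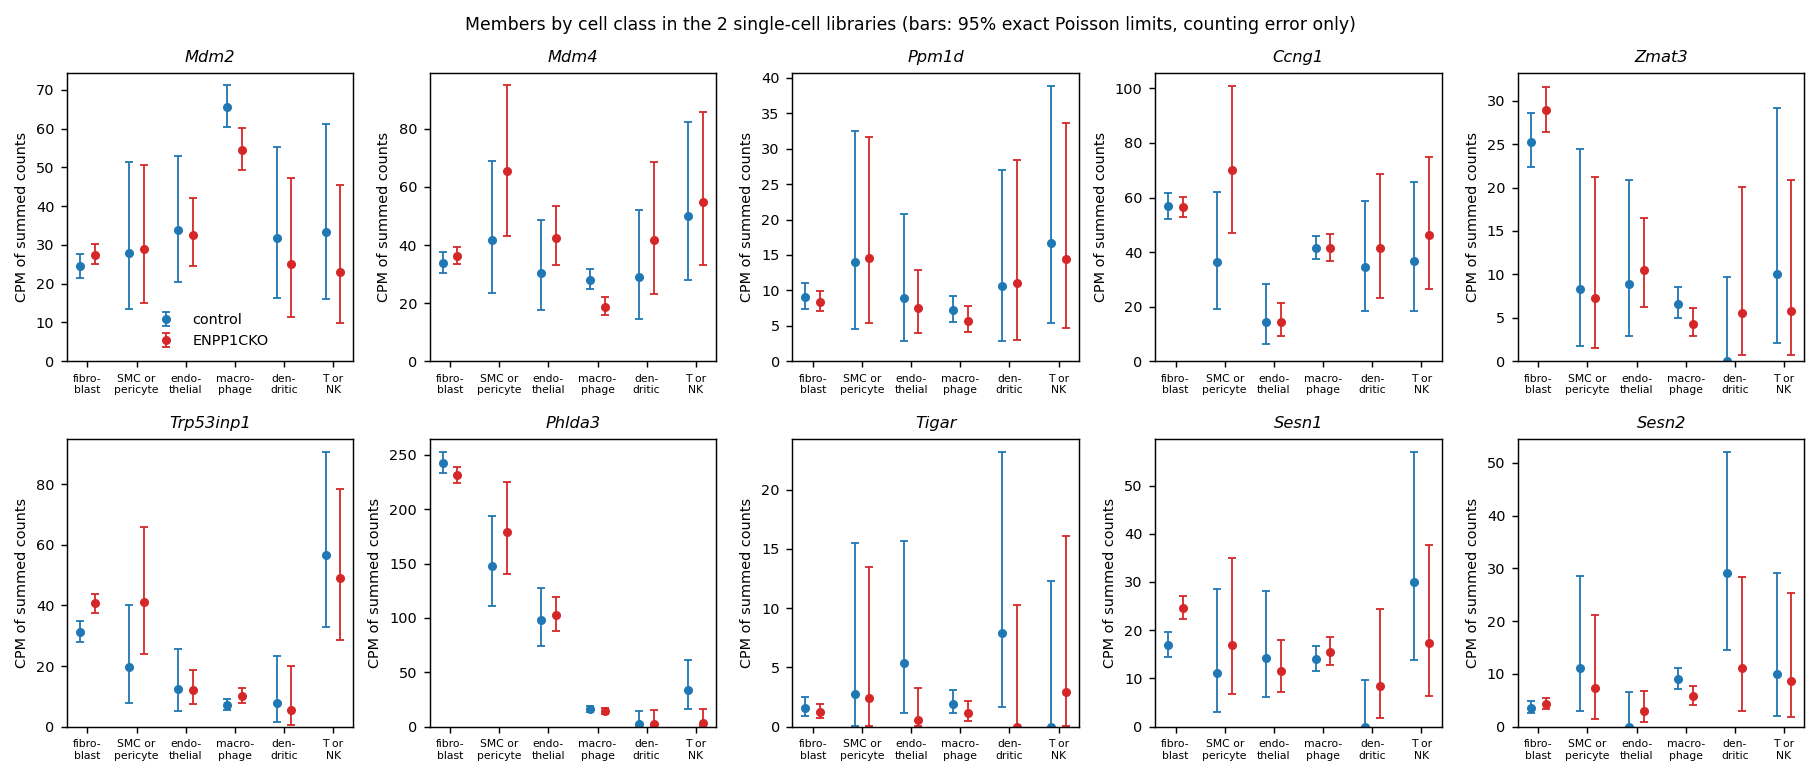
Summed counts of each member as CPM of all counts of the class (y axis, linear and starting at 0) in the 6 cell classes with at least 50 cells in each library (x axis), control in blue and ENPP1CKO in red, with 95% exact Poisson limits for counting error only. Phlda3 declines from fibroblast-like cells (243 and 231 CPM) to macrophage-like cells (16.3 and 14.2 CPM), and Mdm2 is highest in macrophage-like cells.

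Over the whole fibroblast-like class the members together reached 460 CPM in ENPP1CKO cells against 445 CPM in control cells (log2 ratio 0.05, limits -0.01 to 0.10). After cells were thinned to 1000 counts each, this ratio came to 0.10. Before thinning Phlda3 alone held 3824 of the 7596 counts summed in the ENPP1CKO library and 2524 of the 4631 in the control library. The sum thus rests largely on this member. Trp53inp1 was higher in the ENPP1CKO library, 40.7 against 31.2 CPM (672 and 324 counts, log2 ratio 0.38, limits 0.19 to 0.58). Sesn1 was 24.6 against 16.9 CPM (406 and 176 counts, log2 ratio 0.54, limits 0.28 to 0.80). Whether Trp53inp1 and Sesn1 stand out among all genes by such limits was not tested. The limits of the other 8 members over the class took in 0, among them Mdm2 (0.16, limits -0.06 to 0.39), Ccng1 (-0.01, limits -0.16 to 0.14) and Phlda3 (-0.07, limits -0.14 to 0.00). The median over the members was 0.13, beside -0.00 for 33 other p53 targets and 0.01 for 12757 genes with at least 20 counts. Different clusters held most of these cells in the 2 libraries. A cluster led by Thbs4 and Cilp and a cluster led by Clec3b and Dpep1 held 1588 and 1547 of the ENPP1CKO cells, and the latter and a cluster led by Col11a1 and Acan held 744 and 657 of the control cells. Sesn1 was 27.2 against 12.9 CPM in the Thbs4 cluster (log2 ratio 1.07, limits 0.41 to 1.82), 24.1 against 22.4 CPM in the Clec3b cluster (0.10, limits -0.31 to 0.52) and 17.5 against 14.3 CPM in the Col11a1 cluster (0.29, limits -0.33 to 0.90). The log2 ratio of Trp53inp1 was 0.38 (limits -0.03 to 0.82), 0.03 (limits -0.30 to 0.37) and 0.49 (limits 0.09 to 0.88) in the same clusters. Phlda3 was 180 against 242 CPM in the Clec3b cluster (-0.42, limits -0.55 to -0.29), 270 against 298 CPM in the Thbs4 cluster (-0.14, limits -0.29 to 0.01) and 222 against 215 CPM in the Col11a1 cluster (0.04, limits -0.12 to 0.20). The log2 ratio of the summed members was -0.19 in the Clec3b cluster (limits -0.28 to -0.09), 0.02 in the Thbs4 cluster (limits -0.09 to 0.13) and 0.08 in the Col11a1 cluster (limits -0.04 to 0.19). In the Clec3b cluster Phlda3 held 1085 of the 2333 counts summed in the ENPP1CKO library and 818 of the 1496 in the control library. The limits of every other member took in 0 there. Of these Mdm2, Mdm4, Zmat3, Trp53inp1, Sesn1 and Tigar lay above 0, and Ppm1d, Ccng1 and Sesn2 below it. In the smaller clusters the log2 ratio of the summed members was 0.40 in the one led by interferon-induced genes (limits 0.15 to 0.65) and -0.47 in the one led by cell division genes (limits -0.77 to -0.17).

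In macrophage-like cells the summed members were lower in the ENPP1CKO library, 171 against 198 CPM, a log2 ratio of -0.21 (limits -0.31 to -0.10). The median over the members was -0.31, beside -0.17 for 29 other p53 targets and -0.13 for 10975 genes with at least 20 counts. Mdm4 was 18.8 against 28.1 CPM (-0.58, limits -0.89 to -0.27), Sesn2 5.71 against 8.95 CPM (-0.65, limits -1.23 to -0.09) and Mdm2 54.6 against 65.7 CPM (-0.27, limits -0.46 to -0.08). Of the 2576 control cells of this class 823, and of the 2078 ENPP1CKO cells 54, lay in 1 cluster, the most unequal of the class in cell numbers, and Mdm2 was 109 CPM in it in the control library. Without this cluster, a choice made after seeing the data, the log2 ratio of the summed members was -0.077 and that of Mdm2 was -0.07. In endothelial-like cells the summed members were 237 against 227 CPM (0.07, limits -0.22 to 0.36), and the limits of each of the 9 members with counts in both libraries took in 0. Sesn2 had 5 counts there in the ENPP1CKO library (2.90 CPM) and 0 in the control library, a difference within counting error.

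Of the smaller classes, smooth muscle or pericyte-like cells (156 ENPP1CKO and 73 control) had summed members of 433 against 321 CPM (0.43, limits 0.09 to 0.78). T or NK cell-like cells (178 and 141) had 225 against 276 CPM (-0.30, limits -0.76 to 0.17), and dendritic-like cells (81 and 88) had 153 against 153 CPM. No member exceeded 74 counts in any of these classes in either library. Phlda3 in T or NK cell-like cells, with 1 count against 10, was the single member there whose limits left out 0 (-3.53, limits -8.97 to -0.71).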

How the data were processed

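Mouse CFs, NRVM and nonmyocytes of infarcted hearts were profiled by RNA sequencing (20, 15 and 2 libraries). The authors deposited unnormalized read counts per gene and library, and counts per gene and cell barcode for the single cells, and 0 sample columns were left unused. The submitters' processing notes name STAR 2.5.3a, Cell Ranger and the builds mm10 and rn6. The program that counted reads in the CFs and NRVM, and its use of strand, are not given in the sources used here, so overlapping genes may share reads.

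CFs and NRVM were each fitted in R 4.3.3 with edgeR 4.0.16 (filterByExpr, 17879 and 13461 genes left, TMM scaling, robust quasi-likelihood with 1 mean per medium and time). P-values are two-sided, with Benjamini-Hochberg adjustment across the genes left, in 22 comparisons. The SE is the log2 fold change divided by the root of the test's F. Alternatives were DESeq2 1.42.0, its size factors in edgeR, no filter, the replicate number as a block, the compared groups alone and leaving out each library.

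Cells under 200 genes or above 20% mitochondrial counts were dropped in scanpy 1.11.5 (Python 3.11.15), Scrublet's predicted doublets (151 and 69) were removed, and Leiden clusters (resolution 0.5, 2000 variable genes, no p53 list gene or Enpp1) were named from at least 3 markers. Counts were summed per class and library. Alternatives were stricter filters, a resolution of 1.0, doublets kept and cells thinned to 1000 counts.

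The members and lists were chosen with earlier results of these data known. The text names all 10 members, every measured paralog, up to 3 highest and 3 lowest called other p53 targets and regulators with ENPP1+ATP in CFs at each time, and the 3 genes most like Mdm2, Ccng1 and Phlda3. Of these, 1 gene is not reported here.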

Additional observations from a re-analysis of the deposited data

Results flagged for a closer look

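The effect of 2 media on some members differed between 24 h and 48 h in the CFs by the interaction test in edgeR. Against vehicle, the effect of ENPP1+ATP at 48 h minus that at 24 h was 0.76 on the log2 scale for Mdm2, 0.64 for Zmat3, 0.42 for Mdm4 and 0.34 for Ccng1. For AMP the same difference was 0.36 for Mdm2, 0.53 for Zmat3 and -0.36 for Tigar. The call of Tigar was lost by DESeq2 (adjusted p = 0.0516) and with the groups compared alone. That of Tigar with AMP and that of Ccng1 with ENPP1+ATP also depended on single libraries. For Mdm2 both libraries of each of these media at 48 h lay above both at 24 h.

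With ENPP1+ATP and with AMP the sestrins moved in opposite directions in the 2 cell types at 24 h. The rule that flagged them required every library of the medium to lie on the same side of every vehicle library. That separation is therefore no added support, and the share of all genes that meet the rule was not computed. With ATP the sestrins did not move in this way, since Sesn2 rose in both cell types (0.38 in CFs and 0.32 in NRVM). Sesn1 fell in CFs with ATP (-0.64) and was not called in NRVM (0.08). This difference was not tested. Sesn1 changed by -0.46 with ENPP1+ATP and by -0.84 with AMP in the CFs, and by 0.30 and 0.28 in NRVM. Sesn2 changed by 0.92 and 1.19 in the CFs, and by -0.18 and -0.18 in NRVM.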

How the results depend on the processing

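No log2 fold change of a member that was called against vehicle, ATP or time changed sign under any alternative run. The count of members called stayed within 1 of its value under every alternative for ENPP1+ATP and AMP against vehicle, and within 2 for ATP. Without 1 library, the count for AMP against ENPP1+ATP at 24 h ranged from 1 to 3 and that for 48 h against 24 h under vehicle from 0 to 2. The latter was 5 with no filter on low counts and 4 with only the groups compared, and the interaction count for AMP was 5 with no filter. With the replicate block the count of members called was 9 for ENPP1+ATP against vehicle at either time, 4 in place of 3 for AMP against ENPP1+ATP at 24 h and 3 in place of 2 for time under vehicle, through Zmat3 (adjusted p = 0.0457 by edgeR) and Trp53inp1 (0.0371), and it changed in no other comparison. The labels do not tie same-numbered libraries together, and 6 of 90 same-numbered pairs of CF libraries and 1 of 30 of NRVM libraries had deviations correlated above 0.1, so the number was not taken as a pairing. In the CFs 16 of 20 libraries were nearest to their own number, a hint of a shared deviation there, and in NRVM 6 of 15 were. With 2 libraries in a CF group, their deviations from the group's mean mirror each other. The 2 libraries of a CF group thus always give the same answer, and each correlation among the 90 pairs is counted 2 times.

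Counts over all genes moved with the setting. ATP against vehicle in the CFs gave 1983 genes at 24 h and 920 to 1205 without 1 library, and at 48 h 1400 against 646 to 929, or 2590 with only the groups compared. AMP against ENPP1+ATP gave 1118 at 24 h against 255 to 722 without 1 library other than AMP replicate 2, or 382 with only the groups compared. At 48 h it gave 29 against 2 to 106 without 1 library, 322 with no filter, 158 by DESeq2, 47 with the replicate block and 2 with only the groups compared. Time under vehicle gave 873 against 235 to 440 without 1 library, or 2485 with only the groups compared. ENPP1 against vehicle gave 0 against 26, 180 and 14 with no filter in CFs at 24 h, at 48 h and in NRVM, 1 and 5 with only the groups compared in CFs at 48 h and in NRVM, and 129 without ENPP1 replicate 2 at 48 h. The cause was not tested.

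In the single cells, thinning every cell to 1000 counts gave a summed log2 ratio of 0.10 in fibroblast-like cells, and leaving out the macrophage-like cluster most unequal in cell numbers, an alternative added after seeing the data, gave -0.077 in macrophage-like cells. With 1 library per genotype, a member under 20 counts is limited by depth.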
